A study of Mus musculus with 8 samples.

Results

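The heat shock response and the unfolded protein response are the programmes by which a cell adjusts its protein folding machinery. Their expression was followed through 34 mouse genes chosen by name: 12 chaperones and co-chaperones of the cytosol, the transcription factor gene Hsf1, 2 genes of the mitochondrial chaperonin, and 19 genes of the endoplasmic reticulum (ER), its degradation machinery and its stress sensors. All 34 were among the 24346 genes listed for each of 8 RNA sequencing libraries. None was at 0 in any library, and all 34 passed the filter on low values in every comparison below. Levels are in FPKM, a unit that divides the fragments of a gene by its transcript length and by the fragments of the library, so genes can be compared with each other.

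The libraries were made from mesenchymal cells sorted from mouse large intestine as CD45-, EpCAM-, CD31- and Ly6C negative, gp38+ and PDGFRα high. The genotype set held 2 untreated libraries, 1 of Cxcl12 flox/flox mice (the control) and 1 of Foxl1cre; Cxcl12 flox/flox mice, so both carried the floxed Cxcl12 allele and only the second the Cre, which is driven by Foxl1 and acts only in cells that express it. The GABA and taurine set held cells of C57BL/6 mice treated with 1 mM GABA and 20 mM taurine, with 3 libraries at 0 h and 3 at 6 h. There was no untreated library at 6 h, so time and treatment cannot be told apart. The sources used here do not say whether the cells were cultured, how old the mice were or whether animals were pooled. They also do not say that the 3 replicates came from separate cultures or animals. The p-values and intervals below therefore rest on a spread among these libraries that may be only technical.

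As background, heat shock factor HSF1 is held inactive by chaperones and is freed when misfolded proteins occupy them. It then binds heat shock elements, repeats of the unit nGAAn in alternating orientation, and raises the transcription of chaperone genes. In the ER, misfolded proteins are sensed by IRE1 (gene Ern1), PERK (Eif2ak3) and ATF6. IRE1 splices the messenger of Xbp1, ATF6 is cut to release a transcription factor, and PERK phosphorylates the initiation factor eIF2α, which slows translation and favours that of ATF4. XBP1 and ATF6 act on ER stress elements in front of genes for ER chaperones, disulfide isomerases and ER-associated degradation.

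The 2 library sets stood apart from each other over the whole table. Total FPKM ran from 513001 to 579004, but 20874 and 21006 genes had a value above 0 in the genotype libraries against 14818 to 14974 in the GABA and taurine libraries. The median of the genes at or above 1 FPKM was 6.99 and 8.08 FPKM in the former and 13.8 to 13.9 FPKM in the latter. The depth in reads is unknown, and values carry no counting interval. Cxcl12, the targeted gene, had 739.7 FPKM in the Foxl1cre library against 1298 FPKM in the control, which is 57.0% of it. Of the markers of the gate, Pdgfra stood between 152 and 227 FPKM over the 8 libraries. Foxl1 stood at 10.2 and 11.6 FPKM in the genotype libraries and at or below 0.289 FPKM in the other 6. In bulk samples such as these, fewer cells of a type and less RNA per cell cannot be told apart.

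Stretches of promoter are shown first, since the 2 responses differ in the elements by which their genes are read. RefSeq promoter windows (GRCm38.p6, the build also called mm10), running from 250 bases before to 50 bases after a start site, were given for 26 of the 34 genes, in 31 windows. Atf6, Cryab, Hsf1, Hsp90aa1, Hsp90ab1, Hspa8, Hyou1 and Manf had none. Both strands were searched. A full heat shock element was taken as GAANNTTCNNGAA and its 2-unit core as GAANNTTC, which lies inside the full element. Heat shock elements of cytosolic and mitochondrial chaperone genes read, 5′ to 3′ with the GAA and TTC units in capitals:
Hspa1a, chr17:34972243-34972270, minus strand: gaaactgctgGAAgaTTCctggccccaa
Hspa1b, chr17:34959325-34959352, minus strand: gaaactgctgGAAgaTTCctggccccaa
Hspb1, chr5:135887792-135887819, plus strand: ttcaacaagaGAAgtTTCcagatggggg
Hspb1, chr5:135887812-135887839, plus strand: gatgggggcaGAAccTTCctggccccgc
Hspe1 and Hspd1, chr1:55088056-55088084, plus strand: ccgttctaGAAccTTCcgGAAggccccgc

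The stretches of Hspa1a and Hspa1b, the adjacent genes of inducible HSP70, were the same in every base, and in both the core lay 104 to 97 bases before the start. Hspb1, which encodes the small heat shock protein HSP27, held 2 cores within 28 bases of each other. The mitochondrial chaperonin genes lie head to head and share 1 element, 84 to 72 bases before the start of Hspe1, and a second 3-unit match overlaps it on the other strand. The full element was found in 0.603% of all 32851 windows and in Hsph1, Hspd1 and Hspe1 among the 26 genes. The core was found in 7.86% of all windows. It was present in 7 of 8 cytosolic genes with a window, namely Bag3, Dnaja1, Hspa1a, Hspa1b, Hspb1, Hspb8 and Hsph1, and in 0 of 16 ER genes. The units in the other order, TTCNNGAA, which also lies inside the full element, were found in 8.52% of all windows. Among the 26 genes, the windows that held them were those of Hsph1, Hspd1, Hspe1 and the PERK gene Eif2ak3. None of the forms was found in the windows of Dnajb1.

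The ER stress element was taken as CCAAT and CCACG with 9 bases between them, and its second form as ATTGG and CCACG with 1 base between them. These stretches are shown because the element marks a part of the ER genes and none of the cytosolic ones, with both half-sites in capitals:
Hspa5, chr2:34772020-34772048, plus strand: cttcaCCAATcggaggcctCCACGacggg
Hsp90b1, chr10:86705633-86705661, minus strand: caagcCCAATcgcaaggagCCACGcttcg
Hsp90b1, chr10:86705528-86705556, plus strand: actcaCCAATcgtgcctcaCCACGcactc
Calr, chr8:84847070-84847098, plus strand: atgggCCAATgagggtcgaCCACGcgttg
Dnajc3, chr14:118937822-118937850, plus strand: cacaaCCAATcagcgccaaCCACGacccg
Creld2, chr15:88819515-88819543, minus strand: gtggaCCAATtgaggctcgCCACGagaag
Pdia6, chr12:17266486-17266514, plus strand: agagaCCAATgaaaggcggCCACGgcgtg
Herpud1, second form, chr8:94386368-94386396, plus strand: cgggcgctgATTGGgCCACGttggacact

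The first form was found in 0.119% of all windows, 39 in number, and in 6 of the 16 ER genes with a window. It was found in 0 of 8 cytosolic genes and in 0 of the 2 chaperonin genes. The second form was found in 0.0365% of all windows and in Herpud1. The half-site CCACG alone was common, in at least 1 window of 35.5% of all genes, and it was found in 13 of the 16 ER genes, 5 of the 8 cytosolic genes and both chaperonin genes. In Hspa5, the gene of the ER chaperone BiP, the first form lay 65 to 47 bases before the start. A match describes these letters only and is not a measured binding site.

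**Figure D1:**
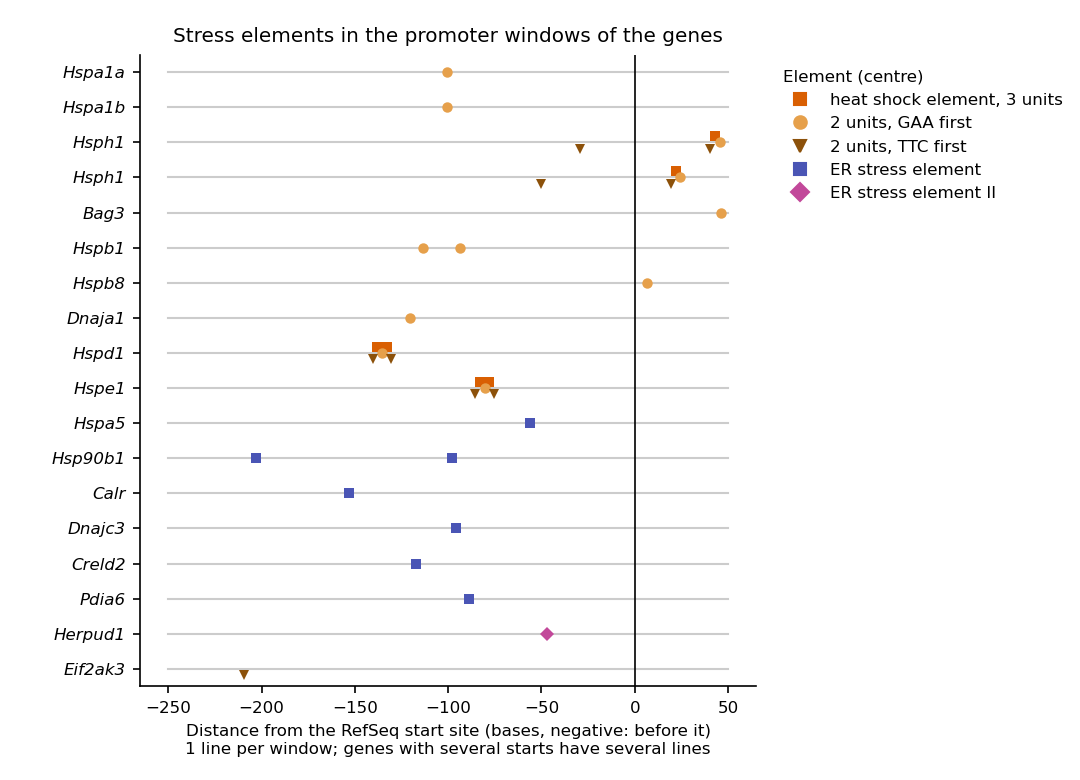
Positions of element matches in the RefSeq promoter windows, with distance from the start site in bases on the horizontal axis, 1 line per window that holds a match, and the symbol giving the kind of element. Heat shock matches lie in the windows of cytosolic and mitochondrial genes and, in the TTC-first order alone, of Eif2ak3, and ER stress matches only in windows of ER genes, where they all lie before the start.

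Hspa8, the constitutive cytosolic HSP70, was the highest of the 34 in every library. The control held 1729.7 FPKM of it and the Foxl1cre library 1888 FPKM. At 0 h it stood at 2503, 2331 and 2412 FPKM and at 6 h at 2159, 2226 and 2174 FPKM. By mean level it ranked 18 among the genes above 0 of the genotype libraries and 8 among those of the GABA and taurine libraries. Hsp90ab1, the constitutive cytosolic HSP90, ranked 75 and 42, and Hspa5 ranked 74 and 131. The stress-inducible pair Hspa1a and Hspa1b ranked 118 and 102 in the genotype libraries and 180 and 185 in the others, out of 21872 and 17119 genes above 0.

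At the low end stood the sensors. Ern1, the gene of IRE1, was the lowest of the 34 in all 8 libraries, with 2.84 and 4.54 FPKM in the genotype libraries and 10.4 to 11.2 FPKM in the others. Atf6 stood at 8.25 and 8.65 FPKM against 15.6 to 18.9 FPKM, and Eif2ak3, the gene of PERK, at 14.1 and 13.5 FPKM against 12.6 to 14.5 FPKM. Xbp1, whose messenger IRE1 splices, was far above them, at 148 and 158 FPKM against 98.7 to 107 FPKM. The splicing of Xbp1 cannot be read from a single value per gene. Hsf1 stood at 25.6 and 27.6 FPKM against 31.3 to 36.5 FPKM.

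**Figure D2:**
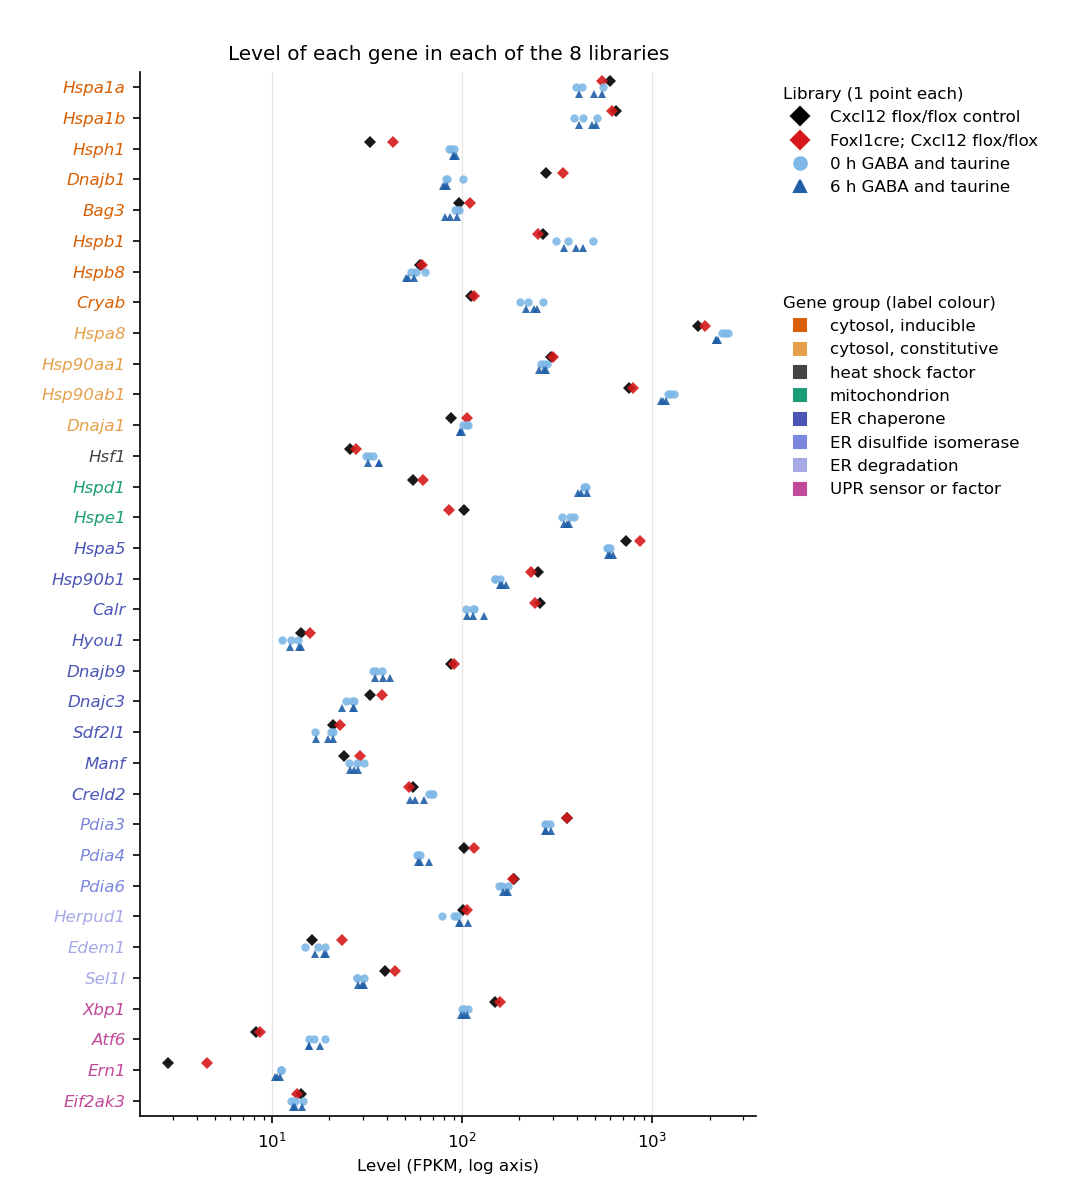
Level of each of the 34 genes in each of the 8 libraries in FPKM on a log axis, 1 point per library, with the gene group in the colour of the name. Hspa8 lies furthest right and Ern1 furthest left, and the diamonds of the genotype libraries lie apart from the other 6 libraries most clearly for Dnajb1, Hspd1, Hspe1 and Ern1.

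Summed over the 34 genes, the share of total FPKM was alike in all libraries, between 1.44% and 1.56%. The make-up of that share was not. The 12 cytosolic genes made up 0.964% and 0.976% of total FPKM in the genotype libraries and 0.969% to 1.096% in the GABA and taurine libraries, so their sums overlapped. The 19 ER genes made up 0.477% and 0.491% against 0.318% to 0.346%, with no overlap. The 2 chaperonin genes made up 0.0307% and 0.0280% against 0.139% to 0.146%, again with no overlap and in the opposite direction.

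The time comparison asks which genes differ between 0 h and 6 h of GABA and taurine. None of the 34 genes passed the threshold of 0.05 on the adjusted p (limma with Benjamini-Hochberg adjustment over 10910 genes), where 0.238% of all genes tested were called higher and 0.312% lower at 6 h. Values are changes of log2(FPKM + 1), 6 h minus 0 h, on which 1 is a doubling at these levels. Over the 34 genes 17 changes were positive and 17 negative. The median was -0.05 for the 12 cytosolic genes, 0.03 for the 19 ER genes and -0.00 for all genes tested. The 95% intervals of the 34 changes lay between -0.41 and 0.36. On the spread among these libraries, each interval thus excluded a change as large as 2-fold. An unadjusted p under 0.05 was reached by 4 of the 34, against 9.38% of all genes. The values of the 2 times did not overlap for 6 of the 34, against 15.3% of all genes.

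Creld2, an ER-resident protein with disulfide isomerase activity whose promoter is shown above, had the smallest p of the 34. It stood at 70.2, 68.4 and 66.6 FPKM at 0 h and at 52.8, 62.6 and 56.2 FPKM at 6 h. All 3 values at 6 h were below the 3 at 0 h. The means were 68.4 ± 1.8 and 57.2 ± 4.96 FPKM (SD, n = 3). The difference of -0.26 on the log2 scale (SE 0.071) had an adjusted p of 0.19 in limma and missed the threshold.

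Herpud1, a membrane protein of ER-associated degradation, lay the other way. It stood at 93.4, 78.2 and 90.5 FPKM at 0 h and 96.1, 97.02 and 107 FPKM at 6 h. Every 6 h value was above every 0 h value, by 0.19 on the log2 scale over the means (SE 0.0744, adjusted p = 0.423 in limma). The most abundant constitutive chaperones had small negative differences. For Hspa8, whose values are given above, the 3 values at 6 h lay below the 3 at 0 h, with a difference of -0.14 and an adjusted p of 0.321 in limma. Hsp90ab1 stood at 1302, 1214 and 1236 FPKM at 0 h and 1134, 1179 and 1114 FPKM at 6 h, without overlap and with a difference of -0.13 (adjusted p = 0.39 in limma). Dnaja1, an HSP40 partner of Hspa8, differed by -0.09 and Ern1 by -0.06, also without overlap and with adjusted p of 0.657 and 0.899 in limma.

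At 0 h the inducible cytosolic genes varied more between replicates than the ER genes by median, though Bag3 and Hsph1 did not. Hspa1a stood at 548, 427 and 398 FPKM at 0 h and 414, 491 and 541 FPKM at 6 h. The 2 times overlapped, and the 0 h values spread further than the 6 h values. Hspa1b followed it with 509, 430.3 and 385 FPKM and 414, 479.6 and 503 FPKM, and the ratio of Hspa1a to Hspa1b stayed between 0.887 and 1.08 in all 8 libraries. Both are near-identical copies that lie 9951 bases apart on chromosome 17, and reads may have been split between them, so each value alone is uncertain. Their sum was 1057, 857 and 784 FPKM at 0 h and 827, 970.4 and 1044 FPKM at 6 h.

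The same libraries were highest in most inducible genes. Hspb1 stood at 488, 358 and 312 FPKM at 0 h, with a coefficient of variation of 23.6%, the largest of the 34, and at 344, 395 and 431 FPKM at 6 h. Cryab, the gene of αB-crystallin, stood at 265, 221 and 201 FPKM and 217, 246 and 239 FPKM. Replicate 1 was the highest of the 0 h libraries in 7 of the 8 inducible genes, where it was the highest for 36.4% of all genes. It was also the highest in 10 of the 12 cytosolic genes and in 21 of the 34. Replicate 3 was the highest of the 6 h libraries in 6 of the 8 inducible genes, against 33.6% of all genes. It was the highest there in 6 of the 12 cytosolic genes and in 11 of the 34. The median coefficient of variation at 0 h was 12.8% for the 8 inducible genes, against 4.96% for the 34 genes and 8.87% for all genes tested. The 19 ER genes had a median of 5.05%. Bag3 and Hsph1, both counted as inducible, lay below it at 2.05% and 2.99%. At 6 h the medians were 6.94% for the 8 inducible genes and 6.23% for the 19 ER genes.

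Hspd1, Hspe1 and Dnajb1, which set the 2 library sets apart further down, overlapped between 0 h and 6 h. Hspd1 stood at 437, 445 and 449 FPKM at 0 h and 423, 454 and 408 FPKM at 6 h, and Hspe1 at 389, 369 and 334 FPKM and 342, 355 and 366 FPKM. Dnajb1 stood at 100.4, 83.2 and 82.3 FPKM and 79.7, 80.8 and 83.6 FPKM. The log2 changes were -0.05, -0.04 and -0.12. Among ER genes, Hspa5 stood at 585, 576 and 602 FPKM and 581, 625 and 599 FPKM, a change of 0.03, and Calr at 105, 113 and 115 FPKM and 106, 129.6 and 114 FPKM, a change of 0.07. The 3 disulfide isomerases lay between -0.00 and 0.07, and Xbp1, Atf6, Ern1 and Eif2ak3 between -0.06 and 0.01.

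**Figure D3:**
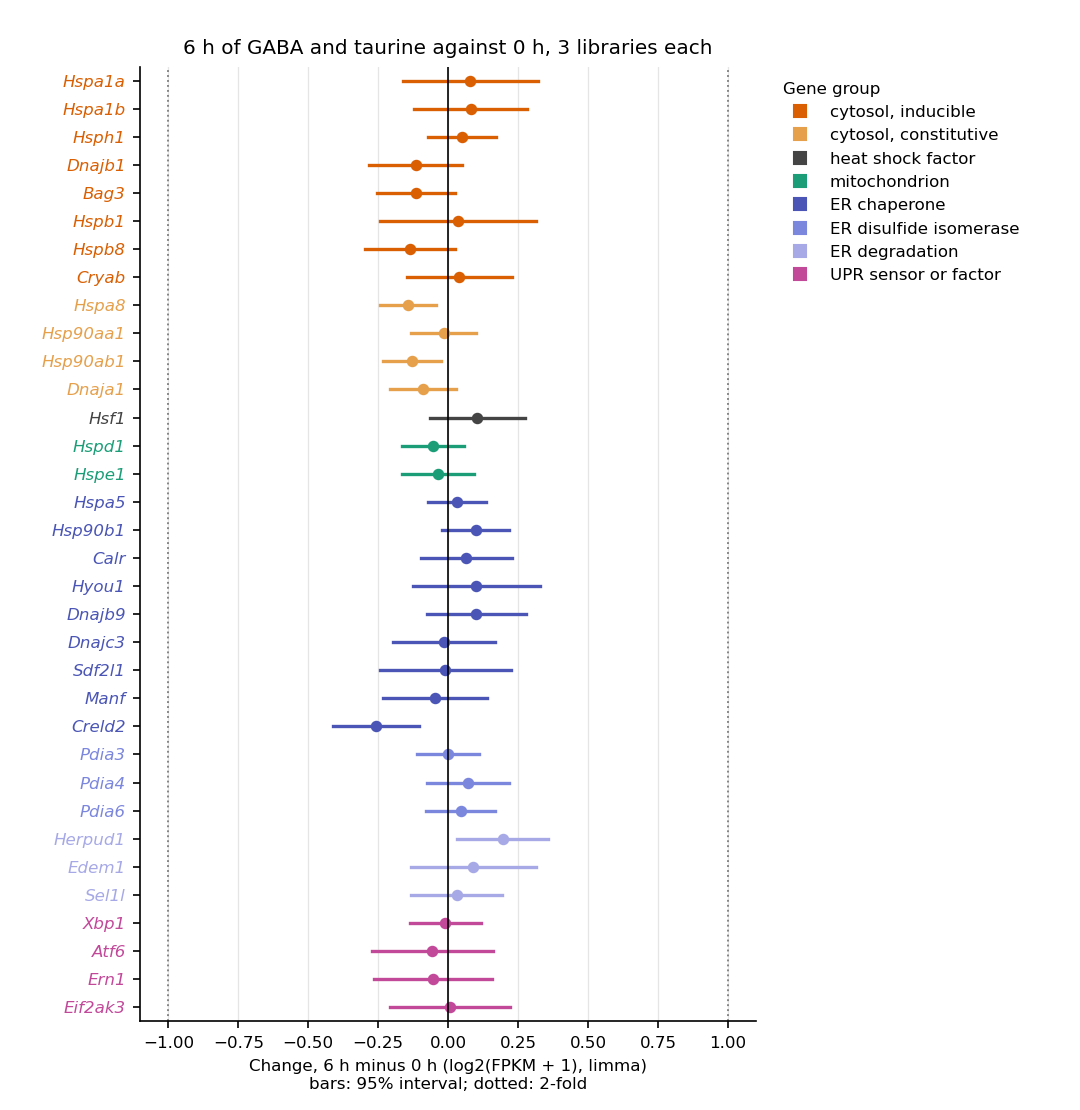
Change of each of the 34 genes between 0 h and 6 h of GABA and taurine (log2(FPKM + 1), 3 libraries each; points are limma estimates, bars 95% intervals, dotted lines a 2-fold change). All intervals lie inside the 2-fold lines, Creld2 lies furthest left and Herpud1 furthest right.

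Other genes of the same pathways, from lists that hold none of the 34, gave 1 call. Of 39 other cytosolic chaperone genes, 7 other mitochondrial chaperones, 22 other ER folding genes, 19 further genes of ER degradation and translocation and 10 further stress factors tested, 0 passed the threshold in either direction in limma, with 1, 1, 1, 0 and 0 at an unadjusted p under 0.05. Their smallest adjusted p in that order belonged to Dnajb5 (0.372), Trap1 (0.495), Pdia5 (0.52), Sec63 (0.632) and Atf6b (0.72), all from limma. In the arm downstream of PERK and ATF4, 1 of 12 genes rose and 0 fell, and 6 had an unadjusted p under 0.05, 2 of them higher and 4 lower at 6 h, against 9.38% of all genes. The gene that rose was Chac1, a glutathione-degrading enzyme induced by ATF4.

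Chac1 stood at 4.06, 6.1 and 6.62 FPKM at 0 h and 10.5, 11.9 and 13.3 FPKM at 6 h. All 3 values at 6 h were above those at 0 h, with a log2 change of 0.99 (SE 0.156, adjusted p = 0.0275 in limma). The call held without 0 h replicate 3 (0.0121) and did not hold without any 1 of the other 5 libraries, where the adjusted p in limma lay between 0.106 and 0.203, nor without the filter (0.314) or without the intensity trend (0.291). Ddit3, the gene of CHOP and a target of ATF4, stood at 128, 123 and 109 FPKM and 102, 103 and 115 FPKM, with an adjusted p of 0.482 in limma. Ddit3 was chosen after its values were seen.

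The genotype comparison sets the Foxl1cre library against the control library. With 1 library of each there is no replicate check and no test, and a difference of at least 2-fold on the log2(FPKM + 1) scale was used as the line. None of the 34 genes was 2-fold higher or lower, where 1.36% of 14949 genes were 2-fold higher and 2.22% 2-fold lower. The Foxl1cre library was higher for 24 of the 34 genes and lower for 10, and it was higher for 55% of all genes. The median difference was 0.06 for the cytosolic genes, 0.08 for the ER genes and 0.04 for all genes. Both group medians turned negative, -0.04 and -0.02, when each library was centred on the median of its expressed genes. The median of all genes was then -0.06.

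Ern1 had the largest difference, from 2.84 FPKM in the control to 4.54 FPKM with Foxl1cre, or 0.53 on the log2 scale. Edem1, a lectin of ER-associated degradation, followed with 16.2 and 23.4 FPKM (0.50), and Hsph1, the gene of HSP105 that recharges HSP70, with 32.9 and 43.2 FPKM (0.38). These 3 genes were all under 50 FPKM. The lowest difference was that of Hspe1, at 103 and 85.6 FPKM (-0.26), although its partner Hspd1 stood at 55.1 and 62.4 FPKM (0.18). Beside these small differences, the 15 epithelial markers summed to 1082 FPKM with Foxl1cre against 116 FPKM without it. The part of other cells in the differences was not tested.

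The library sets differ in genotype, in strain label, in treatment and possibly in how the authors scaled them, and these cannot be told apart. Their differences are therefore given as descriptions with no test. A gene was counted as higher or lower where the values of the 2 genotype libraries and the 6 GABA and taurine libraries did not overlap and the mean log2(FPKM + 1) differed by at least 2-fold. By this rule 3 of the 34 genes were higher in the genotype libraries and 5 lower, where 21.9% of 12043 genes were higher and 19.8% lower. Where the mean reached 10 FPKM, which holds for 33 of the 34, 13% of all genes were higher and 30.6% lower. Without the line of 2-fold, 14 of the 34 were higher without overlap, 10 were lower and 10 overlapped, against 37.8% and 41.3% of all genes.

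Dnajb1, the HSP40 that delivers clients to inducible HSP70, was the gene furthest above. The control had 277 FPKM and the Foxl1cre library 337 FPKM. The GABA and taurine libraries had a lowest value of 79.7, a median of 82.8 and a highest of 100.4 FPKM. Both genotype values were above all others, with a difference of 1.84 on the log2(FPKM + 1) scale. Dnajb1 was the only one of the 12 cytosolic genes counted as higher.

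Its partners did not share that difference. Hspa1a stood at 597 and 545 FPKM in the genotype libraries against a lowest value of 398, a median of 459 and a highest of 548 FPKM, so the sets overlapped. Hspa1b stood at 643 and 614 FPKM against 385 to 509 FPKM, without overlap and with a difference of 0.48 on the log2 scale. Bag3, a co-chaperone of HSP70 in selective autophagy, stood at 96.4 and 109 FPKM against 80.8 to 95.7 FPKM (0.18), without overlap. Its binding partner, the small heat shock protein gene Hspb8, stood at 59.6 and 61.6 FPKM against 50.9 to 63.5 FPKM and overlapped.

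Hspb1 was lower in the genotype libraries, at 267 and 249 FPKM against 312 to 488 FPKM, without overlap and by less than 2-fold (-0.57). Hsph1 and Cryab were lower by more. Hsph1 stood at 32.9 and 43.2 FPKM in the genotype libraries, and the other 6 had a lowest value of 85.4, a median of 89.98 and a highest of 92.9 FPKM. Cryab stood at 111 and 116 FPKM, and the other 6 had a lowest value of 201, a median of 229.9 and a highest of 265 FPKM. Neither gene overlapped between the sets, with differences of -1.22 and -1.01. Cryab sat on the 2-fold line: without the control library its difference was -0.99, without 0 h replicate 1 it was -0.97, and without 6 h replicate 2 or with only the 0 h libraries -0.99. With libraries centred or quantile normalized neither gene reached 2-fold (-0.87 and -0.88 for Hsph1, -0.66 and -0.79 for Cryab).

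Among the constitutive chaperones the 2 HSP90 genes parted. Hsp90ab1 stood at 752 and 788 FPKM in the genotype libraries, below all 6 other values, which ran from 1114 to 1302 FPKM. Hsp90aa1, known as the inducible form but grouped here with the constitutive chaperones, stood at 293 and 299 FPKM. Both values were above all 6 others, which ran from 254 to 281 FPKM. Within a library, the ratio of Hsp90aa1 to Hsp90ab1 was 0.390 and 0.380 in the genotype libraries and 0.214 to 0.241 in the others. A ratio within a library does not depend on its scaling. The difference of Hspa8 was -0.35, which turned to 0.01 with centred libraries. Dnaja1 stood at 87.5 and 106 FPKM against 97.1 to 107 FPKM and overlapped.

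The mitochondrial chaperonin showed the largest differences of the 34 genes. Hspd1 encodes HSP60, the barrel of the chaperonin, and Hspe1 its lid HSP10. Hspd1 stood at 55.1 and 62.4 FPKM in the genotype libraries, and the GABA and taurine libraries had a lowest value of 408, a median of 441 and a highest of 454 FPKM. Hspe1 stood at 103 and 85.6 FPKM, and the other 6 had a lowest value of 334, a median of 360.4 and a highest of 389 FPKM. Both genotype libraries were far below all others for both genes, with differences of -2.87 and -1.92 on the log2(FPKM + 1) scale.

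The 2 genes did not differ by the same factor. The ratio of Hspd1 to Hspe1 was 0.536 and 0.728 in the genotype libraries and 1.12 to 1.34 in the others, without overlap. Hspd1 (chr1:55077835-55088243, minus strand) and Hspe1 (chr1:55088132-55091307, plus strand; GENCODE M21, GRCm38) overlap by 112 bases at their 5′ ends. The library kit does not mark strand, so reads in this overlap cannot be told apart. With centred libraries the differences were -2.52 and -1.57, and both genes were still counted as lower.

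The ER genes lay higher in the genotype libraries more often than lower. Of the 19, 10 were higher without overlap, 2 lower and 7 overlapped. Their median difference was 0.19, against 0.03 for the 12 cytosolic genes and -0.05 for all genes. With centred libraries these medians were 0.55, 0.39 and 0.30, and with quantile normalization 0.43, 0.26 and -0.21, so the ER median was above the cytosolic median under all 3. Of all genes, 37.8% were higher without overlap, and of the ER genes 52.6%. Where the mean reached 10 FPKM, the medians were 0.27 for 18 ER genes, 0.03 for the 12 cytosolic genes and -0.51 for all genes.

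Dnajb9 and Calr were the ER genes counted as higher. Dnajb9, an ER co-chaperone of BiP that also restrains IRE1, stood at 87.4 and 90.2 FPKM in the genotype libraries, and the other 6 had a lowest value of 34.01, a median of 36.3 and a highest of 41.9 FPKM. Calr, the lectin chaperone calreticulin, stood at 257 and 242 FPKM, and the other 6 had a lowest value of 105, a median of 114 and a highest of 129.6 FPKM. In both genes the genotype values lay above all others, with differences of 1.25 and 1.13 on the log2(FPKM + 1) scale.

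The abundant ER chaperones were higher by less than 2-fold. Hspa5 stood at 728 and 864 FPKM against 576 to 625 FPKM, a difference of 0.42. Hsp90b1, the ER form of HSP90, stood at 250.3 and 229 FPKM against 149 to 169.8 FPKM (0.60). Neither overlapped. Dnajc3, an ER co-chaperone known as an inhibitor of PERK, stood at 32.7 and 37.8 FPKM against 23.3 to 27.02 FPKM (0.43), also without overlap.

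All 3 disulfide isomerases, which form and shuffle disulfide bonds, were higher in the genotype libraries without overlap. Pdia4 stood at 102 and 115 FPKM against 57.5 to 66.9 FPKM (0.84, and past 2-fold with centred or quantile normalized libraries, at 1.19 and 1.11). Pdia3 stood at 357 and 356 FPKM against 272 to 293 FPKM (0.35). Pdia6 stood at 187 and 185 FPKM against 156 to 175 FPKM (0.15).

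Of the degradation genes, Sel1l, the adaptor of the ubiquitin ligase that clears ER proteins, stood at 39.2 and 44.3 FPKM against 27.9 to 30.3 FPKM (0.51) without overlap, while Herpud1 (0.15) and Edem1 (0.14) overlapped. Hyou1, the nucleotide exchange factor of BiP, stood at 14.2 and 15.8 FPKM against 11.3 to 14.2 FPKM and overlapped. Sdf2l1, a BiP cofactor, stood at 20.8 and 22.6 FPKM against 16.7 to 20.9 FPKM and the secreted factor Manf at 23.95 and 28.95 FPKM against 25.4 to 30.5 FPKM. Both overlapped, and so did Creld2 at 54.8 and 52.4 FPKM against 52.8 to 70.2 FPKM. Manf and Creld2 changed sign with centred or quantile normalized libraries.

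The sensors and their targets parted as well. Ern1, with the values given above, was lower in the genotype libraries, with a difference of -1.36. Atf6 was lower without overlap, with a difference of -0.90. Eif2ak3 overlapped at 0.04, and Xbp1 was higher without overlap at 0.57. Hsf1 was lower without overlap at -0.33, but at 0.02 with centred libraries and -0.00 with quantile normalization. Ern1 was still counted as lower under both scalings, at -1.01 and -1.95. The other settings tried moved none of these calls, except that Ern1 fell below a filter at a mean of 10 FPKM.

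**Figure D4:**
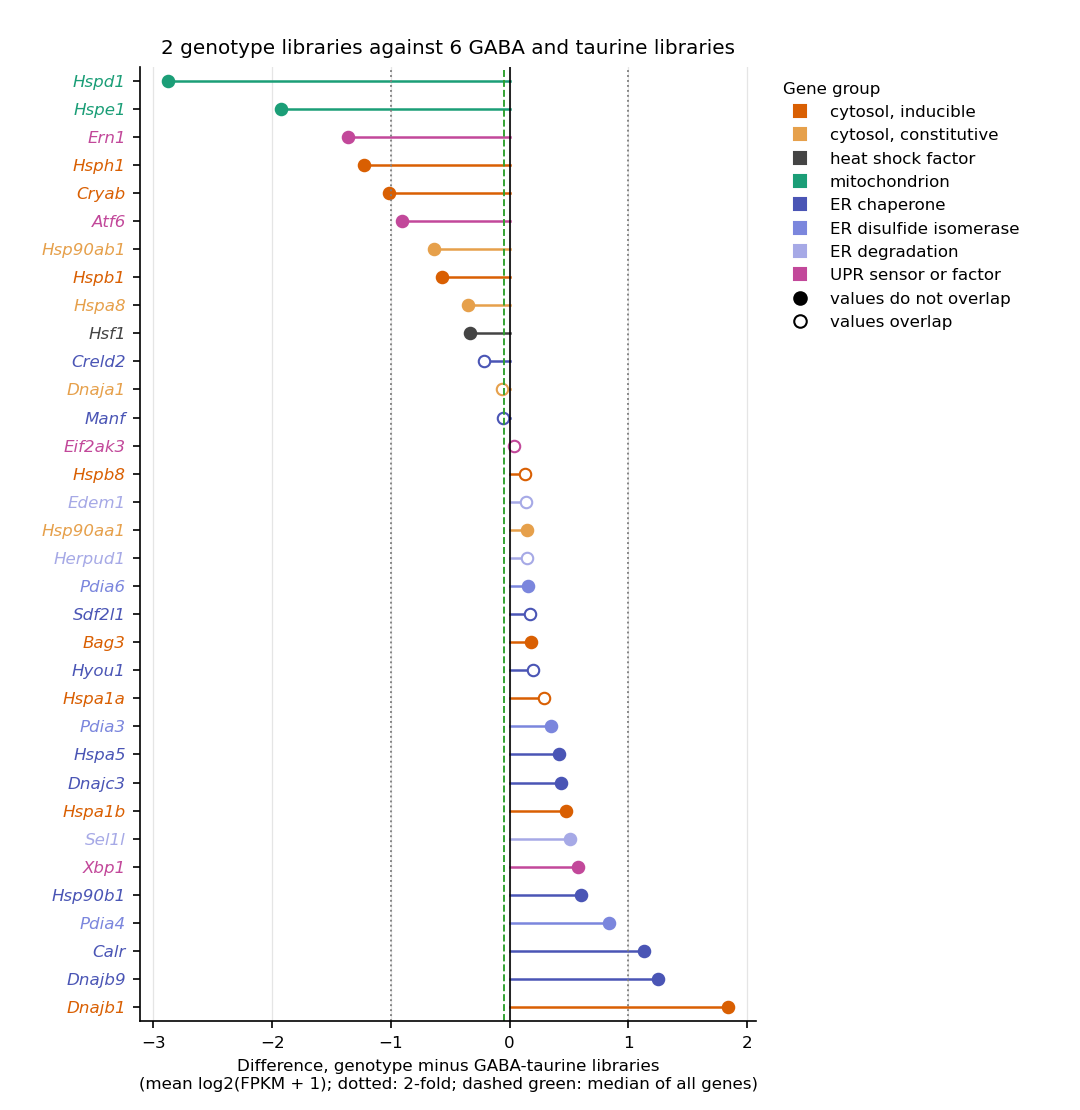
Difference in mean log2(FPKM + 1) between the 2 genotype libraries and the 6 GABA and taurine libraries for each of the 34 genes, in order of size. Filled points mark genes whose values do not overlap between the sets, dotted lines 2-fold, and the dashed line the median of all genes. Hspd1 and Hspe1 lie lowest, Dnajb1, Dnajb9 and Calr highest.

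The elements in the promoters did not sort with these differences in a single way. Of the 6 genes with the first form of the ER stress element, Calr (1.13), Hsp90b1 (0.60), Dnajc3 (0.43), Hspa5 (0.42) and Pdia6 (0.15) were higher in the genotype libraries without overlap, and Creld2 (-0.22) overlapped. Of all genes 37.8% were higher without overlap, and of the 19 ER genes 52.6%. Dnajb9, the ER gene furthest above, held only the half-site. The 3 genes with the full heat shock element, Hspd1 (-2.87), Hspe1 (-1.92) and Hsph1 (-1.22), were all lower in the genotype libraries. Hspd1 and Hspe1 share 1 element, so these are not 3 separate cases. The genes with the 2-unit core but not the full element lay on both sides of 0. Hspb1 was at -0.57, Dnaja1 at -0.07 and Hspb8 at 0.13, and Hspa1a, Hspa1b and Bag3 were at 0.29, 0.48 and 0.18. Dnajb1, without a heat shock match, was at 1.84.

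The other chaperone genes were split by compartment. The CCT chaperonin, the cytosolic barrel that folds actin and tubulin, was lower in the genotype libraries for all 8 subunit genes, with a median of -2.35. Cct6a stood at 64.1 and 70.7 FPKM, and the other 6 libraries had a lowest value of 417, a median of 429.6 and a highest of 448 FPKM. Of the 39 other cytosolic chaperone genes, these 8 included, 25 were lower and 3 higher by the same rule, with a median of -1.20. Of all genes, 19.8% were lower and 21.9% higher. Hspb2, a small heat shock protein of muscle, was the furthest above, at 9.26 and 11.6 FPKM against 1.04 to 1.63 FPKM. Where the mean reached 10 FPKM, 24 of 32 genes of this list were lower and 1 higher. Of all genes there, 30.6% were lower and 13% higher. With centred libraries the CCT median was -1.99 and all 8 were still lower, while the counts of the 39 were 18 lower and 6 higher, where 12.3% of all genes were lower and 29.6% higher.

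Other mitochondrial chaperones went with Hspd1 and Hspe1. All 7 were lower without overlap, 5 of them by 2-fold or more, with a median of -1.49. Of all genes, 41.3% were lower without overlap and 19.8% also by 2-fold or more. The latter share was 30.6% where the mean reached 10 FPKM, which holds for all 7. Hspa9, the mitochondrial HSP70, stood at 62.1 and 67.3 FPKM, and the other 6 had a lowest value of 431, a median of 444 and a highest of 456 FPKM. Clpb, a disaggregase, was the least far below, at -0.62. The same number, 5, was counted as lower with centred and with quantile normalized libraries, where 12.3% and 23.5% of all genes were.

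Other genes of the ER were counted in both directions. Of 23 other folding genes 3 were higher and 1 lower, where 21.9% of all genes were higher and 19.8% lower. Their median was 0.06 against -0.05 for all genes. With quantile normalization the medians were 0.37 and -0.21. A filter at a mean of 10 FPKM dropped 1 of the 3 higher genes, which had passed only through the genotype libraries. There 2 of 22 were higher and 1 lower, where 13% and 30.6% of all genes were. The medians there were 0.04 and -0.51. Fkbp14, a prolyl isomerase for collagen, stood at 28.9 and 36.1 FPKM against 5.96 to 8.34 FPKM, and Ero1l, the oxidase that recharges disulfide isomerases, at 12.6 and 14.7 FPKM against 25.1 to 29.9 FPKM. Ero1l sat on the 2-fold line at -1.001 and was at -0.65 with centred libraries. Of 19 degradation and translocation genes 2 were higher, among them Os9, a lectin of the degradation pathway (1.21), and 1 was lower, Ubxn4 (-1.39). Of 10 further stress factors 0 were higher and 1 was lower, the cell death factor gene Bax (-2.23), while Creb3 was at 0.84. With centred libraries 3 of these 10 were higher, where 29.6% of all genes were.

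The arm downstream of PERK and ATF4 differed from the chaperones of the ER. Of its 12 genes 8 were lower in the genotype libraries and 1 higher, with a median of -1.09, where 19.8% of all genes were lower and 21.9% higher. Where the mean reached 10 FPKM, which leaves out Chac1, 7 of 11 were lower and 1 higher. Of all genes there, 30.6% were lower and 13% higher. Asns, the gene of asparagine synthetase, stood at 7.97 and 13.1 FPKM, and the other 6 had a lowest value of 188, a median of 201 and a highest of 235 FPKM. Chac1 stood at 0.146 and 0.233 FPKM against 4.06 to 13.3 FPKM, and it passed the filter only through the GABA and taurine libraries. Atf3, a stress-induced transcription factor that is also an immediate early gene, was the only one counted as higher, at 375 and 493 FPKM against 105 to 139 FPKM. With centred libraries 5 were lower and 1 higher, where 12.3% of all genes were lower and 29.6% higher.

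**Figure D5:**
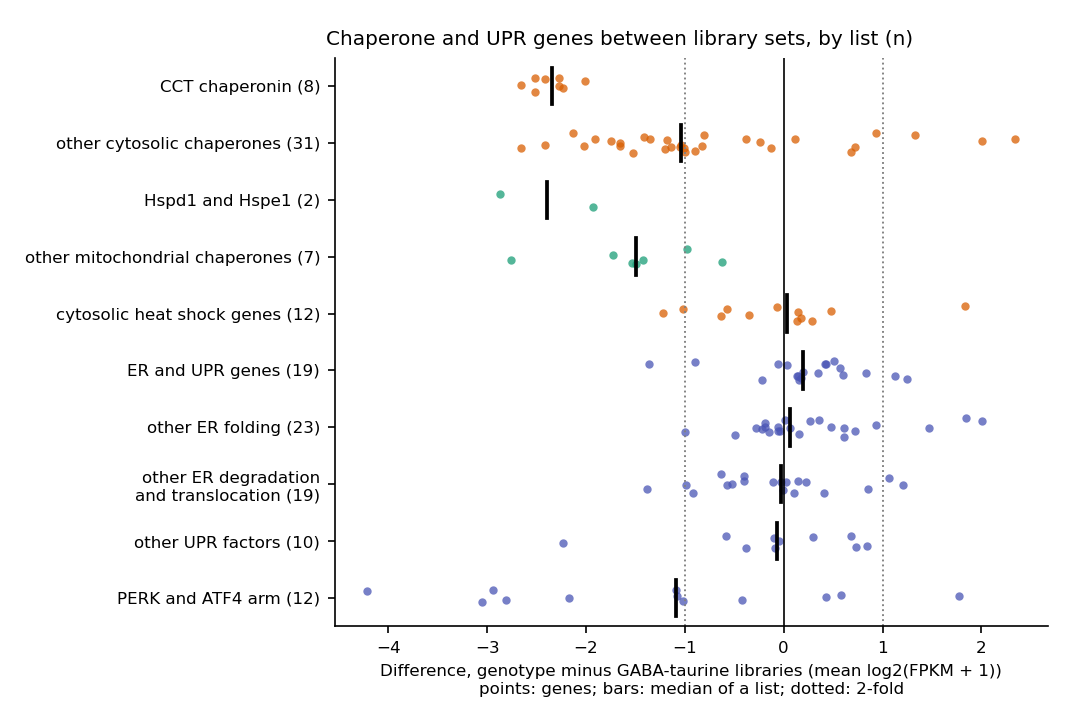
Difference in mean log2(FPKM + 1) between the genotype libraries and the GABA and taurine libraries for genes of each list, with the number of genes in brackets. Each point is a gene, each bar the median of its list, and dotted lines mark 2-fold. The other cytosolic chaperones are drawn without the CCT subunits, which have a row of their own. CCT subunits and mitochondrial chaperones lie to the left, with list medians of -2.35 and -1.49, and the lists of ER folding genes lie around 0.

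Markers of other cells, and immediate early genes, which respond rapidly to stimuli, differed between the same library sets. The 15 epithelial markers summed to 116 and 1082 FPKM in the genotype libraries and to 2.78 to 8.43 FPKM in the others. In the latter, 2 to 6 of the 15 were at 0. The 14 leukocyte markers summed to 559 and 665 FPKM against 6.50 to 21.3 FPKM, with 2 to 5 at 0 in the latter, and the 11 endothelial markers to 57.3 and 29.8 FPKM against 6.87 to 10.2 FPKM, with 3 to 6 at 0. No count without overlap is given for these lists, since the filter took the mean over all 8 libraries and most markers passed it only through the genotype libraries. Over the GABA and taurine libraries alone, 2 epithelial, 4 leukocyte and 2 endothelial markers reached a mean of 1 FPKM. Epcam stood at 4.18 and 14.6 FPKM against at most 0.48, Ptprc at 4.82 and 6.85 FPKM against at most 0.216, and Pecam1 at 4.86 and 2.75 FPKM against at most 0.165 FPKM. The 8 smooth muscle and pericyte markers summed to 379 and 443 FPKM against 542 to 610.5 FPKM. Their genes went both ways: of the 7 past the filter, 5 were higher and 2 lower. Over the GABA and taurine libraries alone, 5 of the 8 reached a mean of 1 FPKM. The 12 mesenchymal markers summed to 14846 and 16507 FPKM against 1716 to 2007 FPKM. Without overlap, 9 of the 12 were higher and 1 lower, against 37.8% and 41.3% of all genes. Foxl1, 1 of the 9, passed the filter only through the genotype libraries. The 24 immediate early genes summed to 12374 and 13929 FPKM against 2798 to 3205 FPKM, with Fos at 3478 and 3923 FPKM against 54.5 to 74.1 FPKM. Their part in the differences of the chaperone genes was not tested.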

How the data were processed

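RNA was measured in 8 libraries made with SMART-Seq HT and Nextera XT, per the labels' protocols, which do not mark strand. The authors deposited 1 table of FPKM per library, per the file headers. Per the submitters' processing notes the tools were Cuffdiff 2.2.1, TopHat2 2.1.1, SAMtools 0.1.18 and Bowtie2 2.2.8 and the build was mm10; their roles are not stated there. The annotation, how reads that fit several genes were shared out and how libraries were scaled to each other was not given in the sources used here. Library sets may have been scaled separately.

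Groups came from the labels. FPKM are not counts, so limma 3.58.1 (R 4.3.3) was run on log2(FPKM + 1) for 6 h against 0 h, with an intensity trend, over the 10910 genes whose mean reached 1 FPKM, two-sided, with Benjamini-Hochberg adjustment over all of them. A log2 difference on this scale understates changes of low genes. The fit was tested on simulated data. Genotypes and library sets were compared without a test, over 14949 and 12043 genes at the same filter. No 2 libraries were copies, since at most 1 gene of at least 1 FPKM had equal values in any pair. Same-numbered replicates at 0 h and 6 h did not deviate together, so no block was used.

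The 34 genes, the 6 further pathway lists of 112 genes and the 6 lists of cell markers and immediate early genes were chosen with earlier results of these data known. From each further pathway list the text names every gene past the threshold in time, or else the gene with the smallest p, and the genes with the largest set difference in either direction among those with at least 10 FPKM in a set mean. Coordinates of genes are from GENCODE M21 (GRCm38), and promoter windows from RefSeq. Alternatives were pseudocount, filter, centring, quantile normalization, no trend, the replicate block, the sum of Hspa1a and Hspa1b, only the 0 h libraries, and leaving out each library.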

Additional observations from a re-analysis of the deposited data

How the results depend on the processing

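In the time comparison 0 of the 34 genes were called higher or lower under any of the 14 other fits, with a smallest adjusted p in limma between 0.110 and 0.569, while the number of all genes called ran from 0 to 103 against 60. It was 0 without the filter, without the intensity trend and without 6 h replicate 2. Same-numbered replicates of 0 h and 6 h had correlations of deviations of -0.083, -0.034 and 0.003, and no library correlated best with its own number. With the replicate block 0 of the 34 genes were higher or lower, and 23 genes were called in all. The medians at 6 h ran from -0.09 to -0.01 for cytosolic and from 0.01 to 0.05 for ER genes with 1 library left out.

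Between genotypes, centring moved the medians to -0.038 for cytosolic genes, -0.015 for ER genes and -0.065 for all genes. Between library sets, centring moved the median of all genes from -0.05 to 0.30 and the split of its calls from 52.6% higher and 47.4% lower to 70.6% and 29.4%, and quantile normalization moved the split to 44.3% and 55.7%. The cytosolic median was 0.39 centred and 0.26 quantile normalized, and the ER median 0.55 and 0.43. With 1 library left out the cytosolic median ran from -0.059 (without the Foxl1cre library) to 0.11 and the ER median from 0.16 to 0.35 (without the control library). With a filter at a mean of 10 FPKM 0 ER genes were counted as lower, since Ern1 fell below it. The counts of cytosolic genes higher kept at 1 in all settings. The depth of reads is unknown, so what it limits could not be stated.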
